A study of Mus musculus with 9 samples.

Results

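The vomeronasal receptor cluster of chromosome 7 was taken as all H3R2me2a peaks that start in the 4.5 Mb from the 20 Mb point of the chromosome (build mm10), a window that holds 86 Vmn1r genes, among them Vmn1r155. It held 4916 of the 1548240 peaks in the 6 lists: 2217 and 1472 in Prmt6KO replicates 1 and 2, 0 and 3 in Igf2bp2KO, and 742 and 482 in WT. The flanks, from 10 to 18 Mb and from 26 to 34 Mb of the same chromosome, cover 16 Mb and held 10055 peaks. The window was selected on the peak density, peak height and replicated Prmt6KO peaks of these same lists, so these are described below without a test. Two-sided exact permutation of 2 libraries against 2 could in any case give no p below 0.333.

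The libraries are ChIP-seq of H3R2me2a, asymmetric dimethylation of arginine on the tail of histone H3, with an antibody from EpiGentek. The cells are labelled bone marrow of Prmt6KO, Igf2bp2KO and WT mice, are called leukemia cells in the series' design text, and were grown with IL3, IL6 and SCF. Each of the 3 genotypes has 2 H3R2me2a libraries and 1 input library, and the inputs were not analysed here. The sources used here give neither the way the knockouts were made nor the age of the mice. They also do not say if the paired libraries are from different mice or cultures. The spread within a pair can thus be technical, biological or both. For WT replicates 1 and 2, peak density relative to the autosomes was 0.182 and 1.21 on X, and 0.376 and 0.00876 on Y. Whether this pair differs in the sex of the mice was not tested.

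Vmn1r genes encode type 1 vomeronasal receptors, G protein-coupled receptors of the apical sensory neurons of the vomeronasal organ, where they detect pheromones and other chemical cues. They lie in arrays made by repeated local duplication, and each sensory neuron is thought to express a single receptor gene while the others stay silent. PRMT6 is the main enzyme known to write H3R2me2a, a mark that counteracts H3K4 trimethylation at promoters, and IGF2BP2 binds m6A-modified RNA.

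The 300 bases around the start of Vmn1r155, the gene with the highest replicated Prmt6KO peak of the window, are shown with those of 3 other receptors because they show how alike many of these copies are. The sequences come from RefSeq (GRCm38.p6, all on the + strand), run 5′ to 3′, and hold 250 bases before the annotated gene start and 50 after it. Capitals mark bases that differ from Vmn1r155 in the alignment. The Vmn1r155 sequence (chr7:22657768-22658067) is the same, base for base, as that of Vmn1r107 (chr7:20668668-20668967), which lies 1.99 Mb away. Vmn1r130 (chr7:21511530-21511829) has 2 differences, and Vmn1r100 (chr7:20417692-20417991), the least alike of the 18 copies that are at least 95% identical, has 15, of which 13 are in capitals and 2 are bases of Vmn1r155 that it lacks. Vmn1r148 (chr7:22411981-22412280) is 45.3% identical to Vmn1r155 and is written in lower case throughout.
Vmn1r155: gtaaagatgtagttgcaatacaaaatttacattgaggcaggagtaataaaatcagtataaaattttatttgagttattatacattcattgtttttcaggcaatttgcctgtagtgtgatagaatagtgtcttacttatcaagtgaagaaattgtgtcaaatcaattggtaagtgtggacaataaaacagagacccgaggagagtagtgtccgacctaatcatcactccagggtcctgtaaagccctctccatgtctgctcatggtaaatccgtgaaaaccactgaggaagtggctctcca
Vmn1r130: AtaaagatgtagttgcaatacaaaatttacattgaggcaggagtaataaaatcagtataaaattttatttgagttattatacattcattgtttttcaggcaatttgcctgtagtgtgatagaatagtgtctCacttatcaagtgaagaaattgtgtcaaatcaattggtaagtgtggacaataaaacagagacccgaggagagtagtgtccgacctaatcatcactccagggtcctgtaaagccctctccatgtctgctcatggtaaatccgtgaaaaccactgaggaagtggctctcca
Vmn1r100: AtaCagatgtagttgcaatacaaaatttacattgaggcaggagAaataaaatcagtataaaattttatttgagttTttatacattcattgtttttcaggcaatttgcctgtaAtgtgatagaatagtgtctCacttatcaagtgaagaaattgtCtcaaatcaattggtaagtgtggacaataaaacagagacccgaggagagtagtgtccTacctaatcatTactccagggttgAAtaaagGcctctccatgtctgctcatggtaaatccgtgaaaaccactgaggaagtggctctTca
Vmn1r148: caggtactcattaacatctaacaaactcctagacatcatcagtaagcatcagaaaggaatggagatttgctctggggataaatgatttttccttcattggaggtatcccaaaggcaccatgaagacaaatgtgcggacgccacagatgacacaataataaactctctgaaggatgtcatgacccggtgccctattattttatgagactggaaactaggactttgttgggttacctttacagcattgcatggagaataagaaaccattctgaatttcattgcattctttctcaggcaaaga

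The similarity runs through most of the window. RefSeq gave such a sequence for 83 of the 86 Vmn1r genes. In the proximal array, the 3.15 Mb from Vmn1r91 to Vmn1r166 with 70 Vmn1r genes, 67 of 68 sequences were at least 95% identical to another Vmn1r sequence and 52 were exactly the same as another. Vmn1r148 was the exception, at 65.3% to its closest relative. In the distal array, which follows it and spans 0.551 Mb with 16 Vmn1r genes, 6 of 15 reached 95% and 0 were exact copies. Among 123 Vmn1r sequences elsewhere in the genome, 10 reached 95% and 2 were exact copies. A short fragment from an exact copy has more than 1 possible origin, and the sources used here do not state how such reads were placed, so values of single genes in the proximal array may be uncertain between copies.

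Each list carries its own background, which was 0.736 and 1.21 fragments in Prmt6KO, 1.45 and 1.34 in Igf2bp2KO, and 1.46 and 1.44 in WT. The lowest listed summit held 2 and 3 fragments in Prmt6KO, 8 and 7 in Igf2bp2KO, and 4 and 4 in WT. The lists held 814517 and 431638 peaks in Prmt6KO, 1028 and 1261 in Igf2bp2KO, and 165304 and 134492 in WT. The sources used here give no total of reads per library. WT replicate 1 stood apart: its peak density relative to the autosomes was 0.182 on X and 0.376 on Y, whereas the other 5 libraries had 0.774 to 1.24 on X and 0.00876 to 0.0482 on Y. Prmt6 with 1 kb either side held 5 and 0 peaks in Prmt6KO and 1 and 0 in WT, and Igf2bp2 held 0 and 0 peaks in Igf2bp2KO and 4 and 3 in WT. Peaks in both WT libraries and in neither Igf2bp2KO library were met at 38% of all protein-coding genes. At these numbers the peak lists do not check the deletion of Prmt6 or of Igf2bp2.

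Peaks were denser in the window than in the flanks in both Prmt6KO and WT. Prmt6KO replicates 1 and 2 had 493 and 327 peaks per Mb in the window and 332 and 175 in the flanks. WT had 165 and 107 in the window and 72.1 and 48.9 in the flanks. The ratio of window to flanks was 1.48 and 1.87 in Prmt6KO, and 2.29 and 2.19 in WT. It averaged 1.68 ± 0.272 in Prmt6KO and 2.24 ± 0.0703 in WT (SD, n = 2 each), and the values of the genotypes did not overlap on the full lists. At equal summit heights they did: with 6 fragments or more the ratio was 1.65 and 2.54 in Prmt6KO and 2.29 and 2.39 in WT, and with 8 or more it was 0.889 and 2.69 in Prmt6KO and 2.62 and 2.60 in WT. Which genotype had the larger excess was thus not settled by these lists. Without WT replicate 1, the WT ratio on the full list was 2.19.

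Igf2bp2KO lists, which are short throughout the genome and begin at 8 and 7 fragments, held few peaks of the window. Replicate 1 had 0 peaks, which allows up to 0.667 per Mb by counting error alone, and replicate 2 had 3, or 0.667 per Mb. As a share of the list this was 0.238% in replicate 2, next to 0.272% and 0.341% in Prmt6KO and 0.449% and 0.358% in WT. The flanks had 0.188 and 0.25 per Mb in these libraries, numbers too small to show a difference between window and flanks. The Igf2bp2KO peaks held 11, 11 and 10 fragments. One of them, at 20532342 to 20532541 and 1.30 kb from Vmn1r104, was overlapped by a peak in both Prmt6KO and both WT libraries. The others, at 22869331 to 22869530 (1.69 kb from Vmn1r160) and at 22791160 to 22791392 (0.378 kb from Vmn1r158), were overlapped by no peak of another list.

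**Figure D1:**
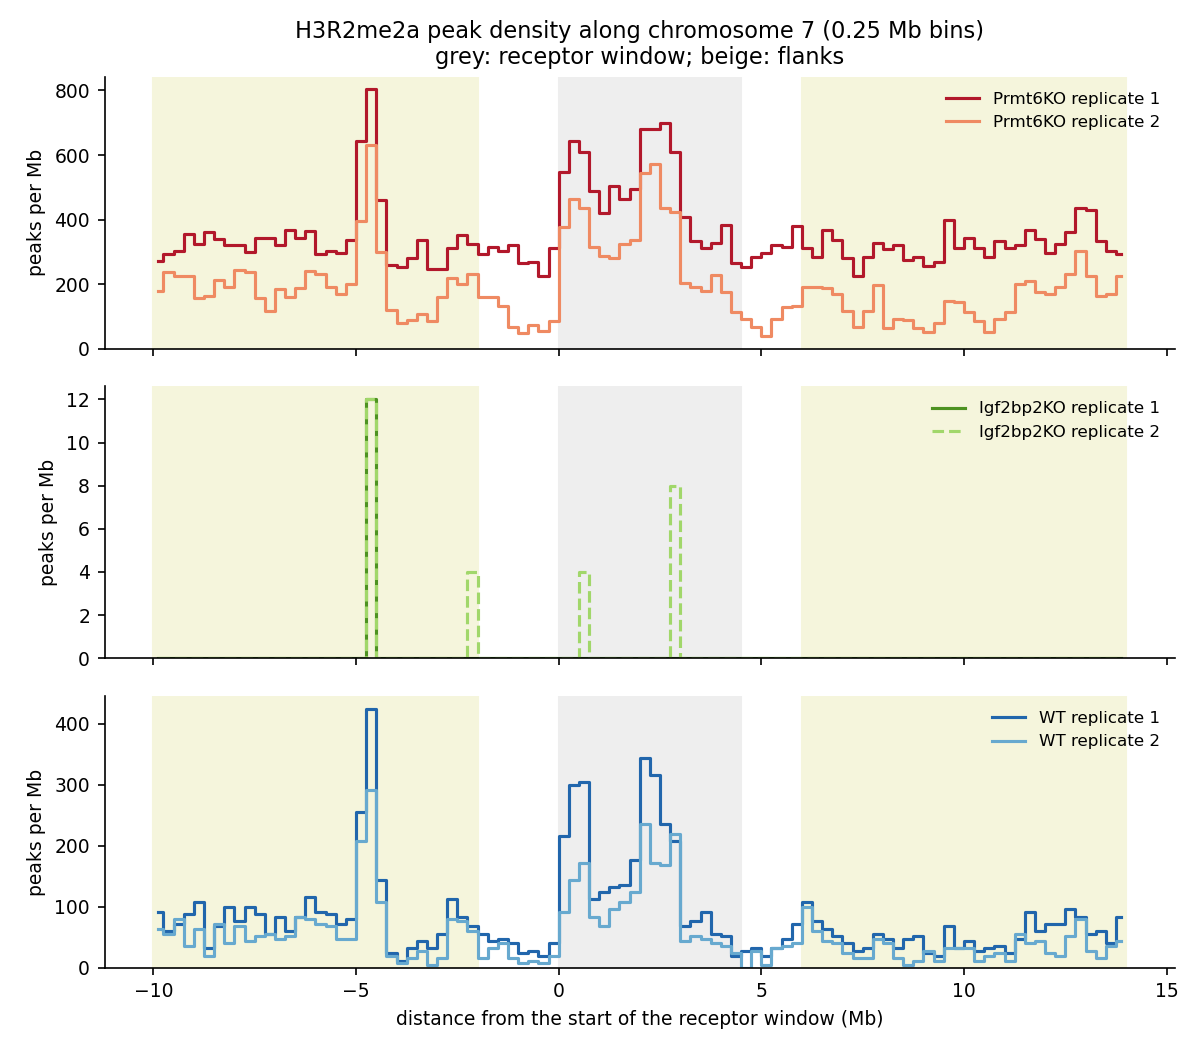
Peaks per Mb in bins of 0.25 Mb (vertical axes, with a scale of their own for each genotype) against distance from the start of the receptor window in Mb (horizontal axis), with 1 line per library. Density climbs at the window start and falls back about 3 Mb later in the Prmt6KO and WT libraries, and the spike in the left flank is the segment around Obox2.

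The edges of the window differed. In the 0.5 Mb just inside its start, Prmt6KO had 298 and 210 peaks and WT had 129 and 59, whereas the 0.5 Mb just outside held 134 and 35 in Prmt6KO and 15 and 7 in WT. In the 0.5 Mb just inside its end, Prmt6KO had 162 and 72 peaks and WT had 18 and 15, and the 0.5 Mb just outside held 134 and 40 in Prmt6KO and 15 and 7 in WT. Density thus stepped up at the first edge and had already fallen before the second.

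The excess lay in the proximal array. Its density was 560 and 390 peaks per Mb in Prmt6KO and 209 and 136 in WT, or 1.96 ± 0.382 and 2.84 ± 0.0818 times the flanks (SD, n = 2 each). This array makes up 70.0% of the window's length and held 79.6% and 83.5% of the window's peaks in Prmt6KO and 88.7% and 89.0% in WT. In each of these 4 libraries its densest bin of 0.5 Mb was the one from 22 to 22.5 Mb, with 340 and 279 peaks in Prmt6KO and 165 and 102 in WT. The bin from 21 to 21.5 Mb, in the middle of the array, held 231 and 142 in Prmt6KO and 64 and 41 in WT.

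The distal array stood at the level of the flanks although it consists of Vmn1r genes too. It had 339 and 209 peaks per Mb in Prmt6KO and 72.6 and 45.4 in WT, or 1.11 ± 0.120 and 0.967 ± 0.0567 times the flanks. The interval of Nlrp4e and Nlrp5 between the arrays was at 1.02 and 1.32 times the flanks as means of Prmt6KO and WT. The 10 zinc finger genes that follow were at 0.988 in Prmt6KO and 0.570 in WT, and the rest of the window was at 0.664 and 0.374. The 6 other Vmn1r clusters of the genome, on chromosomes 6, 7, 13 and 17, had means of 0.984 to 1.09 times the chromosome 7 flanks in Prmt6KO and 0.971 to 1.28 in WT. The left flank itself holds 25 Vmn1r genes. Among them is a chromosome 7 cluster counted here, which thus enters its own comparison. Gene density was 26.7 protein-coding genes per Mb in the window, 15.4 in the left flank and 25.9 in the right flank.

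**Figure D2:**
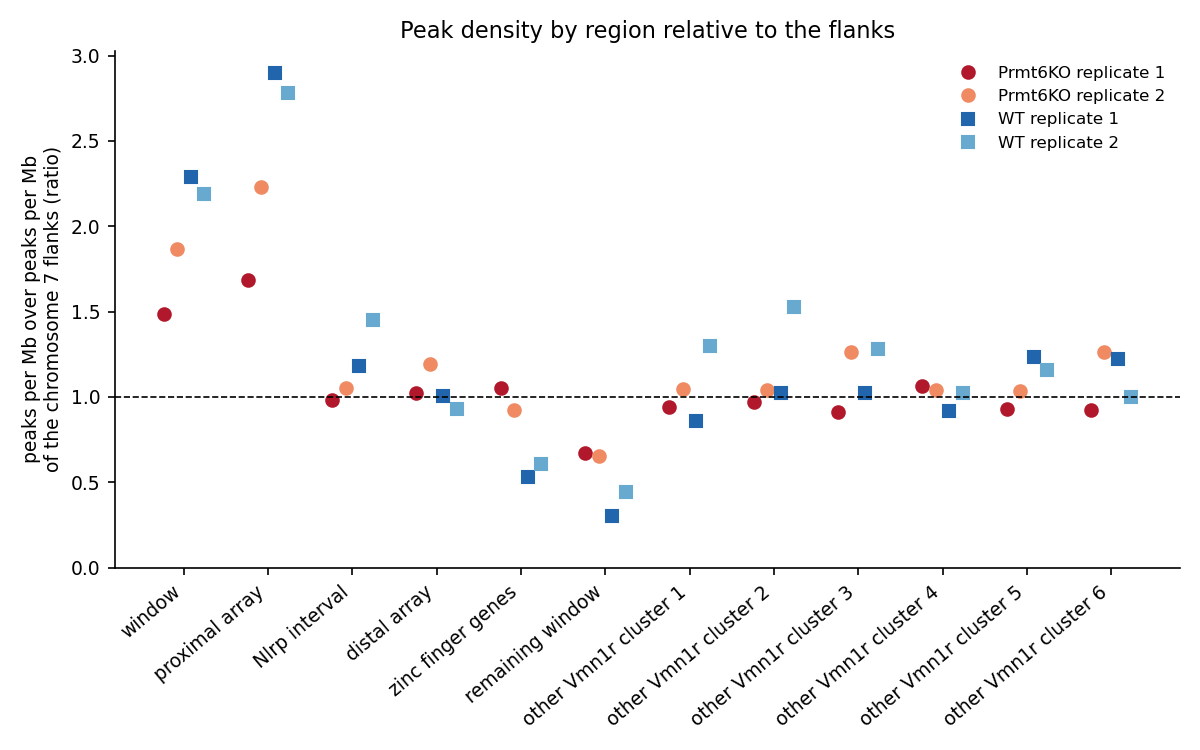
Peak density of each region divided by that of the chromosome 7 flanks (vertical axis, ratio) for the window, its 5 sections and 6 other Vmn1r clusters (horizontal axis), with 1 point per library. The proximal array lies above the dashed line at 1 in all 4 libraries (1.69 and 2.23 in Prmt6KO, 2.90 and 2.78 in WT), and the distal array lies close to it.

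Few bins of the genome were as dense as the proximal array, which was part of a window chosen on density. The bins include those of the array itself, and each is shorter than its 3.15 Mb. Of 5252 bins of 0.5 Mb on chromosomes 1 to 19 and X, 0.248% and 0.438% reached the density of the proximal array in Prmt6KO, and 0.419% and 0.800% did in WT. The median bin had 318 and 170 peaks per Mb in Prmt6KO and 64 and 48 in WT.

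Relative to WT, Prmt6KO had more peaks in every section, and the gap was smallest where density was highest. Mean density was 475 peaks per Mb in Prmt6KO and 173 in WT in the proximal array, which is 2.75-fold. It was 274 and 59.0 in the distal array (4.65-fold) and 256 and 34.1 at the zinc finger genes (7.50-fold). Over the whole window it was 410 and 136 (3.01-fold), and over the flanks 254 and 60.5 (4.19-fold). The direction depended on how height was counted, and the lists begin at different heights. Counting only summits of 8 fragments or more, the window held 0.444 and 6.89 peaks per Mb in Prmt6KO, 0 and 0.667 in Igf2bp2KO, and 16.9 and 8.44 in WT. The flanks then held 0.5 and 2.56 in Prmt6KO and 6.44 and 3.25 in WT. At that height Prmt6KO lay below WT in window and flanks alike. Relative to background the direction was the other. With summits of at least 6 times the list's own background, the window held 229 and 31 peaks in Prmt6KO and 22 and 9 in WT. The flanks then held 413 and 41 in Prmt6KO and 33 and 12 in WT. Depth differs between the genotypes, as their backgrounds show, and its part in either direction was not tested.

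Peaks of the window were more numerous but hardly taller. The mean summit held 3.28 and 4.72 fragments in Prmt6KO and 6.02 and 5.92 in WT, against 3.16 and 4.60 in Prmt6KO flanks and 5.98 and 5.78 in WT flanks. The ratio of window to flanks was 1.03 ± 0.00751 in Prmt6KO and 1.02 ± 0.0123 in WT (SD, n = 2 each), and 1.02 in the only Igf2bp2KO library with window peaks. Mean width was 316 and 314 bp in the window for Prmt6KO and 304 and 286 bp for WT, against 285 and 285 bp in Prmt6KO flanks and 278 and 272 bp in WT flanks. The tallest summit of the window held 9 and 11 fragments in Prmt6KO, 11 in Igf2bp2KO replicate 2, and 12 and 10 in WT. Elsewhere on chromosome 7 summits reached 33 and 62 fragments in Prmt6KO, 51 and 67 in Igf2bp2KO, and 94 and 64 in WT.

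By the authors' q-values, few of these peaks passed 0.05. The window held 19 and 31 such peaks in Prmt6KO, 0 and 0 in Igf2bp2KO, and 22 and 9 in WT. The flanks, over 16 Mb, held 31 and 41 in Prmt6KO, 0 and 0 in Igf2bp2KO, and 33 and 12 in WT.

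**Figure D3:**
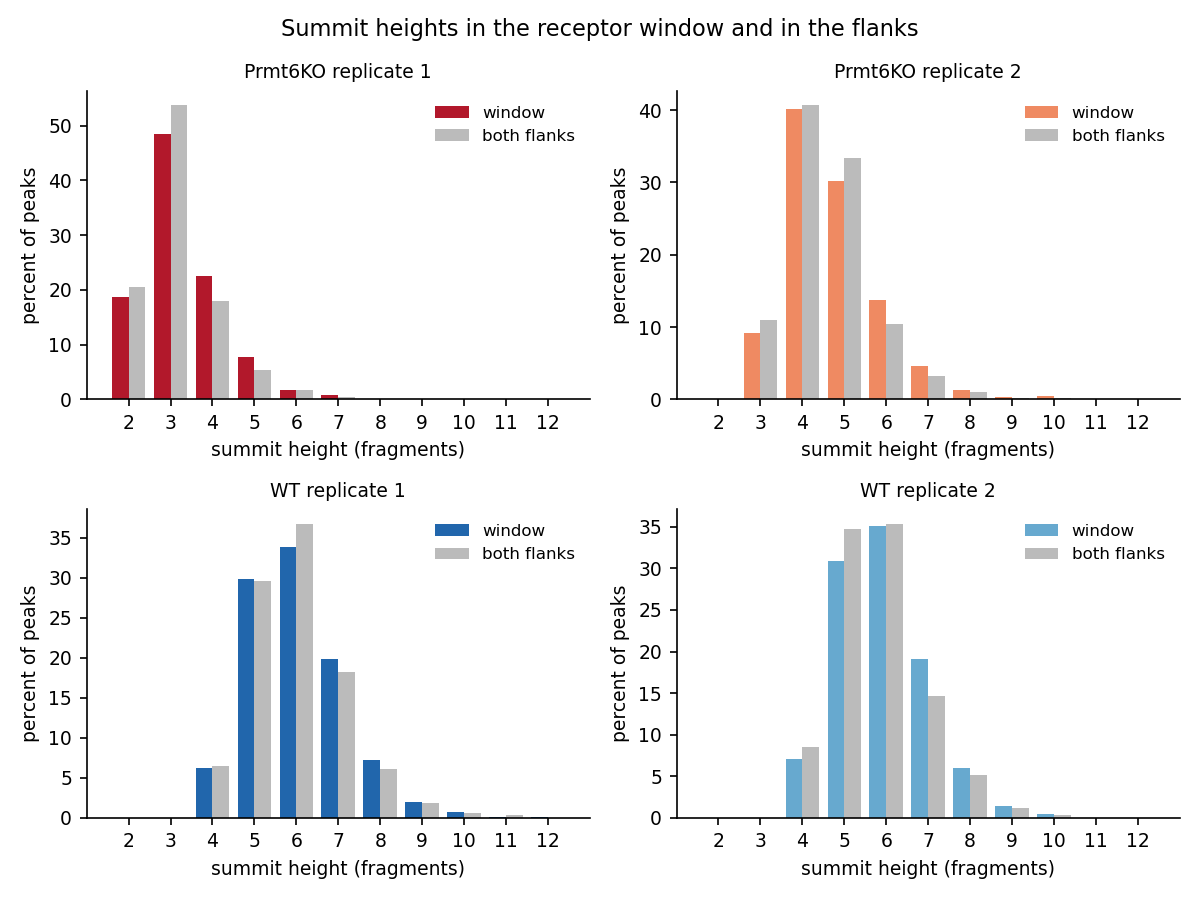
Percent of peaks (vertical axis) at each summit height in fragments (horizontal axis), for the window (coloured) and both flanks (grey), in the 2 Prmt6KO and the 2 WT libraries. The window's distribution is shifted to taller summits by a small amount in each library, with means of 3.28 against 3.16 fragments in Prmt6KO replicate 1.

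Prmt6KO replicate 1 peaks were met by a replicate 2 peak more often in the window than in the flanks. Of 2217 window peaks 567 overlapped a replicate 2 peak by at least 1 bp (25.6%), whereas 721 of 5311 flank peaks did (13.6%). Counted from replicate 2, the shares were 38.1% in the window and 25.5% in the flanks. Where peaks are dense, more of them overlap by position alone. If replicate 2 peaks of the same number and widths lay evenly, 18.5% of the window peaks and 9.52% of the flank peaks would be met, so the lists held 1.38 and 1.43 times those shares in window and flanks. Relative to even placement, the replicated share was thus about as high in the flanks as in the window. In WT the replicated share was 12.9% in the window (96 of 742) and 8.76% in the flanks (101 of 1153), at 2.12 and 3.03 times the even shares.

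Replicated Prmt6KO peaks lay mainly in the proximal array, which held 513 of the 567 (90.5%), as it did 94 of 96 in WT (97.9%). The share of Prmt6KO replicate 1 peaks that were replicated was 29.1% there and 14.4% in the distal array. Even placement would give 22.1% and 11.1%, so the lists held 1.32 and 1.30 times those shares, about the same in both arrays. By bins of 0.5 Mb the replicated share was highest from 22 to 22.5 Mb (129 of 340, 37.9%) and from 22.5 to 23 Mb (108 of 327, 33.0%), around Vmn1r155. In WT it was highest from 22.5 to 23 Mb (22 of 111, 19.8%). The even share was not computed by bin. In Prmt6KO the replicated share was lowest in the last 0.5 Mb of the window, at the zinc finger genes and beyond (15 of 162, 9.26%). Of the 567 replicated peaks, 417 (73.5%) met no peak in either WT library, 134 met 1 in a single WT library and 16 met 1 in both. In the flanks, 544 of 721 (75.5%) met none. In the other direction, 15 of 96 replicated WT peaks of the window (15.6%) met a peak in both Prmt6KO libraries, against 35 of 101 in the flanks (34.7%). The shares that met a peak in neither were close, at 33 of 96 (34.4%) in the window and 33 of 101 (32.7%) in the flanks. Only 1 replicated peak of the window, at Vmn1r155, passed q of 0.05 in both Prmt6KO libraries, and 3 did in the flanks.

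**Figure D4:**
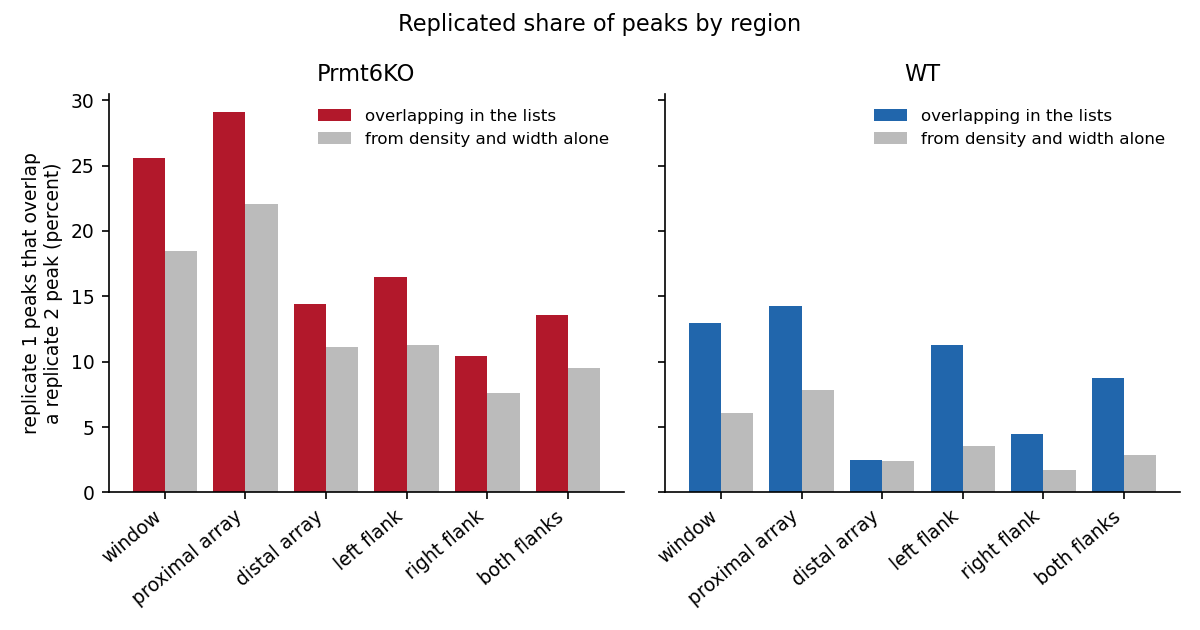
Percent of replicate 1 peaks that overlap a replicate 2 peak (coloured bars) and the percent that even placement of replicate 2 peaks of the same number and widths would give (grey bars), by region, for Prmt6KO and WT. In Prmt6KO both bars are tallest in the proximal array (29.1% and 22.1%).

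The replicated peak with the highest summits over background was at Vmn1r155. In Prmt6KO replicate 1 it spans 22657845 to 22658909, with 7 fragments, and covers most of the gene model at 22658018 to 22658941. In replicate 2 it spans 22658566 to 22659266, with 10 fragments, and covers only the part of the gene model from 22658566 on. The authors' fold enrichment was 4.61 and 4.98, and their −log10 q was 2.01 and 3.22. No peak lay within 1 kb of the gene in either Igf2bp2KO or WT library. Vmn1r107, whose start region has the same sequence, had summits of 4 and 7 fragments in Prmt6KO, 0 and 0 in Igf2bp2KO, and 6 and 0 in WT. The Vmn1r155 summits lie 692 and 695 bp past the end of the sequence shown, where the copies were not compared here.

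The next replicated peaks were smaller and mostly between genes. The second, 2.41 kb from Vmn1r157 (22765001 to 22765861 in replicate 1), held 5 and 10 fragments in Prmt6KO and met no WT peak. The following pair, 12.03 kb from Vmn1r142 and 9.10 kb from Vmn1r157, held 5 and 8 fragments each and also met none. The one after lay inside Nlrp4e, a gene of a family with roles in oocytes, with 6 and 8 fragments in Prmt6KO and no WT peak at that place. Of the remaining 5 among the first 10, 2 met no WT peak, 2 met a peak in WT replicate 1 alone (7 and 6 fragments), and 1 met a peak in both WT libraries (8 and 7 fragments against 6 and 7 in Prmt6KO). The tallest single peaks of the libraries were elsewhere: 4.84 kb from Vmn1r159 in Prmt6KO replicate 1 (9 fragments), 7.10 kb from Vmn1r240 in Prmt6KO replicate 2 (11 fragments), 28.8 kb from Vmn1r119 in WT replicate 1 (12 fragments), and 13.4 kb from Vmn1r107 and 7.55 kb from Vmn1r148 in WT replicate 2 (10 fragments each).

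A gene was called in a genotype when a peak met its span with 1 kb either side in both libraries. By this rule 52 of the 86 Vmn1r genes (60.5%) were called in Prmt6KO, 0 in Igf2bp2KO and 17 (19.8%) in WT. The rule does not ask that the peaks of the libraries overlap each other. In 11 of the 52 the tallest peaks of the 2 Prmt6KO libraries did. Among all 21631 protein-coding genes the shares were 73% in Prmt6KO, 0.356% in Igf2bp2KO and 38.6% in WT, but a longer gene meets more peaks, and Vmn1r spans have a median of 924 bp. Among the 2441 protein-coding genes with a span under 2 kb, 27.2% were called in Prmt6KO, 0% in Igf2bp2KO and 4.06% in WT. The window's receptors were above the shares of short genes in both Prmt6KO and WT. The window was chosen on its peak density, so this excess is not a result separate from that choice. In the proximal array 47 of 70 were called in Prmt6KO and 17 of 70 in WT, and in the distal array 5 of 16 and 0 of 16. Of 145 Vmn1r genes elsewhere, 54 (37.2%) were called in Prmt6KO and 10 (6.90%) in WT.

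Gains in Prmt6KO were close to the background in frequency. Of the 86, 13 (15.1%) were called in Prmt6KO with no peak in either WT library, where 15.3% of all protein-coding genes and 16.2% of those under 2 kb were. The count depended on single libraries: it was 19 without Prmt6KO replicate 1, 21 without Prmt6KO replicate 2, 29 without WT replicate 1 and 22 without WT replicate 2, where short genes had 23.9%, 42.3%, 20.9% and 20.7%. As shares of the 86 these are 22.1%, 24.4%, 33.7% and 25.6%, so the receptors lay below the short genes without either Prmt6KO library and above them without either WT library. The shares elsewhere, with all libraries, were 28 of 145 (19.3%) among other Vmn1r genes and 16 of 70 among short genes of the flanks. None of the 86 was called in WT and without a peak in either Prmt6KO library, against 0.157% of all genes and 0.615% of short genes. All 17 receptors called in WT (19.8% of the 86) were without a peak in either Igf2bp2KO library, a pattern met by 38% of all genes and 4.01% of short genes.

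The 13 gained receptors were Vmn1r94, Vmn1r246, Vmn1r117, Vmn1r119, Vmn1r122, Vmn1r131, Vmn1r256, Vmn1r155, Vmn1r258 and Vmn1r165 in the proximal array, and Vmn1r169, Vmn1r174 and Vmn1r176 in the distal array. Their tallest summits held 3 to 7 fragments in Prmt6KO replicate 1 and 3 to 10 in replicate 2. In 3 of the 13 the tallest peaks of the 2 libraries overlapped each other, and in the rest they lay at different places within the gene's surroundings. Of the 13, 9 had an exact copy of their start region at another Vmn1r gene, and in 7 of these a copy held a peak in at least 1 WT library. Vmn1r131 is an example: its summits held 4 and 8 fragments in Prmt6KO and 0 and 0 in WT, and 4 of its 5 exact copies met a WT peak. Such peaks were common, since only 20 of all 70 Vmn1r genes of the proximal array met no peak in either WT library.

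After Vmn1r155, the receptors with the highest summits in both Prmt6KO libraries had values close to each other. The heights are of the tallest peak in each library. These tallest peaks overlapped between the Prmt6KO libraries at Vmn1r131, Vmn1r159 and Vmn1r247. They lay at different places at Vmn1r256, Vmn1r100, Vmn1r151, Vmn1r148 and Vmn1r107. Vmn1r256 held 5 and 7 fragments in Prmt6KO and 0 and 0 in WT. Vmn1r100 held 5 and 7 in Prmt6KO and 0 and 6 in WT. Vmn1r151 held 5 and 7 in Prmt6KO and 5 and 6 in WT. Thus similar heights in Prmt6KO stood beside none, 1 or 2 WT peaks. Vmn1r148, the receptor without a close copy, held 5 and 7 in Prmt6KO and 7 and 7 in WT. Within its 300 bases shown above, however, it met a Prmt6KO peak in both libraries (4 and 7 fragments) and no WT peak. Vmn1r159, Vmn1r107 and Vmn1r247 held 4 and 7 fragments each in Prmt6KO, with 5 and 7, 6 and 0, and 0 and 6 in WT. Vmn1r131 ranked level with them, with 4 and 8 in Prmt6KO and 0 and 0 in WT. A further 6 receptors tied behind these, Vmn1r254, Vmn1r243, Vmn1r126, Vmn1r114, Vmn1r111 and Vmn1r253, with 4 or 5 fragments in Prmt6KO replicate 1 and 6 in replicate 2.

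The 17 receptors called in WT held 5 to 8 fragments in WT replicate 1 and 4 to 8 in replicate 2, and 14 of them were called in Prmt6KO too. They were Vmn1r240, Vmn1r95, Vmn1r243, Vmn1r245, Vmn1r111, Vmn1r130, Vmn1r137, Vmn1r143, Vmn1r253, Vmn1r148, Vmn1r149, Vmn1r151, Vmn1r152, Vmn1r255, Vmn1r157, Vmn1r159 and Vmn1r160. The 3 that were not were met in a single Prmt6KO library: Vmn1r130 held 4 and 0 fragments in Prmt6KO and 8 and 6 in WT, Vmn1r137 held 0 and 5 in Prmt6KO and 5 and 5 in WT, and Vmn1r160 held 0 and 4 in Prmt6KO and 7 and 5 in WT. The 52 receptors called in Prmt6KO had medians of 4 and 6 fragments in its libraries.

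Genes with the same start region often differed in WT in whether they held a peak, and less often in Prmt6KO, where more genes held one. Of all 70 proximal Vmn1r genes, 59 and 56 (84.3% and 80%) met a peak in the Prmt6KO libraries. In WT 40 and 27 (57.1% and 38.6%) did. The number of groups with a peak at every copy rises with these shares, and what the shares alone would give was not computed. The 52 proximal genes with an exact copy of their start region form 20 groups of up to 6. Peaks were counted over the gene span with 1 kb either side, whereas the copies were compared in the start region alone. A group held a peak at every copy in 14 and 14 groups of the Prmt6KO libraries and in 6 and 3 of the WT libraries, and at some copies but not others in 5 and 6 groups in Prmt6KO and 10 and 13 in WT. The start regions themselves met a peak in 23 and 18 of 68 genes in Prmt6KO (33.8% and 26.5%) and in 12 and 9 of 68 in WT (17.6% and 13.2%). Of all stretches of 300 bases in the proximal array, 34.02% and 23.9% met a peak in Prmt6KO and 12.5% and 7.98% did in WT, so the start regions were close to the array in Prmt6KO and somewhat above it in WT. They were poor in G and C, with a median of 36.3% in the proximal array and 37.7% in the distal array, against 34.7% at other Vmn1r genes and 53.3% at genes of the flanks. The part that copy similarity plays in the density of the proximal array was not tested.

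Most peaks of the proximal array lay between receptor genes. Neighbouring receptors are a median of 32.5 kb apart there, and their spans with 1 kb either side make up 6.53% of its bases. They held 6.06% and 8.71% of the summits in Prmt6KO and 7.45% and 6.99% in WT, and 8.19% of the replicated Prmt6KO peaks. Around 68 annotated gene starts, density in the kb upstream was 0.446 and 0.641 times the array mean in Prmt6KO and 0.704 and 1.08 in WT. In the kb downstream it was 1.34 and 1.88 in Prmt6KO and 1.20 and 0.864 in WT. These bins rest on 17 and 17 summits upstream and 51 and 50 downstream in Prmt6KO, and on 10 and 10 upstream and 17 and 8 downstream in WT. The kb upstream was the lowest of the 20 bins in both Prmt6KO libraries and in WT replicate 1, and the kb downstream was the highest in Prmt6KO replicate 2. Of the 20 bins, 13 and 15 lay above the array mean in Prmt6KO and 14 and 14 in WT. The annotated starts are mostly start codons, since 83 of the 86 gene models have a length divisible by 3 (coding length) and 78 of 83 sequences have ATG at the start, so the true promoters may lie further upstream.

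**Figure D5:**
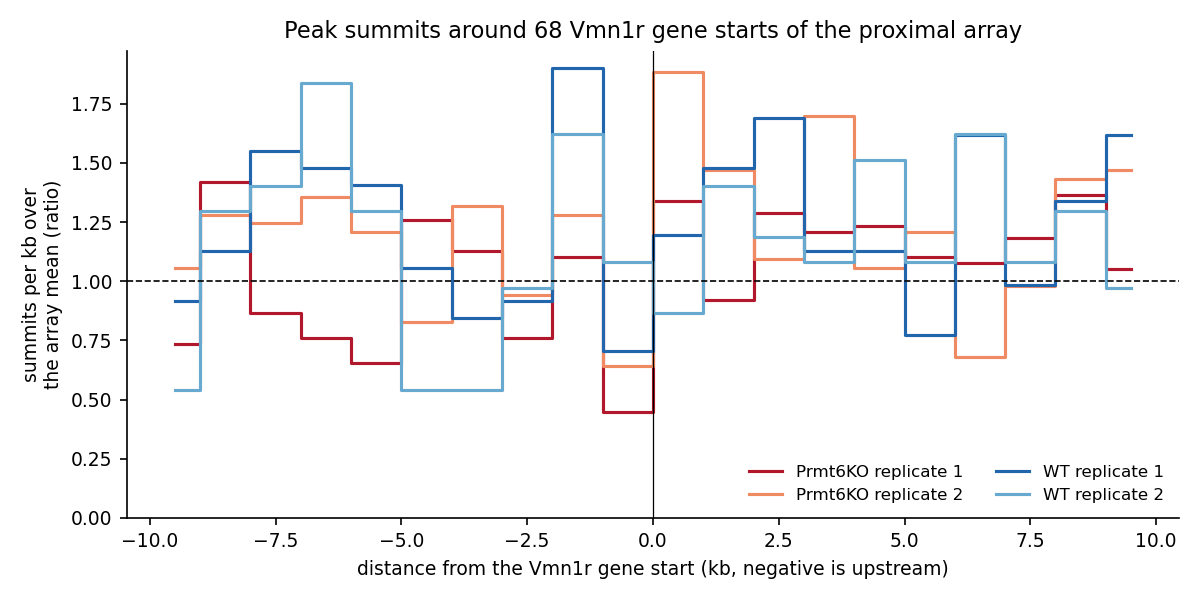
Peak summits per kb divided by the mean of the proximal array (vertical axis, ratio) against distance from the annotated start of 68 Vmn1r genes in kb (horizontal axis), with 1 line per library. Most bins lie above the dashed line at 1 (13 and 15 of 20 in Prmt6KO, 14 and 14 in WT), and the kb upstream of the start is the lowest bin in both Prmt6KO libraries (0.446 and 0.641) and in WT replicate 1 (0.704).

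Of the 34 protein-coding genes of the window that are not named Vmn1r, 23 (67.6%) were called in Prmt6KO and 5 (14.7%) in WT. Of 330 genes of the flanks, 193 (58.5%) were called in Prmt6KO and 61 (18.5%) in WT, and of all genes 73% and 38.6%. Gained were 7 of the 34 (20.6%) and 72 of the 330 (21.8%), against 15.3% of all genes. The gained ones were Zfp112, Zfp114, Zfp61 and Zfp94, which encode zinc finger proteins, Irgc1, and the predicted genes Gm6882 and Gm8708. Zfp114 held 4 and 6 fragments in Prmt6KO and 0 and 0 in WT. Nlrp4e held 6 and 8 in Prmt6KO and 7 and 7 in WT, and Nlrp5, a maternal-effect gene of the oocyte, held 7 and 5 in Prmt6KO and 8 and 5 in WT. Plaur, which encodes the urokinase receptor of myeloid cells, held 5 and 5 in Prmt6KO and 5 and 0 in WT. V1rd19, a type 1 receptor by its name, held 4 and 6 in Prmt6KO and 0 and 5 in WT. None of the 34 met an Igf2bp2KO peak.

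Other chemoreceptor families and the vomeronasal signalling genes were counted the same way. For these counts, all genes have 73% called in Prmt6KO, 38.6% in WT and 15.3% gained, and genes under 2 kb have 27.2%, 4.06% and 16.2%. Among Vmn2r genes, the type 2 receptors of basal vomeronasal neurons, 122 of 124 were called in Prmt6KO and 99 in WT, and 2 were gained. Their spans have a median of 24.4 kb, so they meet more peaks than Vmn1r genes do. Of the 6 formyl peptide receptor genes, 2 were called in Prmt6KO and 1 in WT, and 1 was gained. Of 15 trace amine receptor genes (Taar), 7 were called in Prmt6KO and 0 in WT, and 6 were gained. Of 16 genes for vomeronasal signalling and neuron identity, such as the channel gene Trpc2 and the G protein gene Gnai2, 9 were called in Prmt6KO and 5 in WT, and 1 was gained. In Igf2bp2KO no gene of these 4 lists was called, and 1 Vmn2r gene met a peak in replicate 2.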

How the data were processed

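H3R2me2a ChIP-seq peak lists of 6 libraries were used, grouped by genotype from the sample titles. MACS2 2.1.0, HISAT2, bedtools, Trim Galore, bcl2fastq 2.17 and the build mm10 appear in the submitters' processing notes, with no settings or order. Each list is of 1 library. In the deposited lists each peak has the authors' fold enrichment, a ratio to background, and the −log10 of the authors' p-value and q-value at its summit. The summit pileup, a coverage signal, is a column of a second table of the same peaks, per the file headers.

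From these values, the background of each list was recovered from fold enrichment and pileup, and Igf2bp2KO pileups, deposited as multiples of 0.277 and 0.302, were divided by these steps to give fragments. Peaks were assigned to regions by their start. Gene positions and 300-base start sequences came from RefSeq GRCm38.p6, which is the build mm10. Overlap meant 1 bp or more, genes were taken with 1 kb either side, and sequence identity is 1 minus the edit distance over the length, in percent. The share from even placement follows from the number and width of the peaks. No test was run, since the window was chosen on these values. Counting limits at 0 allow 3 counts and cover counting error alone. Depth per library is known only as the background in fragments.

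The members and gene lists were chosen with earlier results of these data known. The rule for names took Vmn1r155, up to 12 receptors called in Prmt6KO with the highest lower summit over background (6 tied for the last places), receptors called in both libraries of WT or Igf2bp2KO, other genes with a q of 0.05 or below in both libraries, the highest peak of each library and the 10 highest replicated Prmt6KO peaks. Gained genes, other genes of the window, Vmn1r158 and the genes whose sequences are shown were named after their values were seen. Overlap and scaling steps were tested on simulated data. Python 3.11.15, numpy 2.4.6, pandas 2.3.3, edlib 1.3.9.post1 and matplotlib 3.10.9 were used.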

Additional observations from a re-analysis of the deposited data

How the results depend on the processing

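Of 69 values recomputed under alternatives, 34 stayed within the spread between libraries (counts within 1.5 times), 27 moved beyond it and 8 reversed. For the replicated share the limit was a binomial counting error over peaks, 2.04 points, and not a spread between libraries. The Igf2bp2KO height ratio rests on 1 library, so any change in it counted as moved or reversed. The cause of each move or reversal was not tested, except where fewer peaks or libraries enter. The density ratio of window to flanks stayed above 1 in Prmt6KO and WT under all alternatives. With peaks of q 0.05 or below it was 2.43 in Prmt6KO and 2.52 in WT, and with summits of 6 times the background 2.33 and 2.52. In WT it was 1.74 against the left flank, 3.16 against the right flank and 2.46 with the window from the first to the last Vmn1r gene. As alternatives added after seeing the data, WT gave 2.56 with the flanks without the Obox2 bin and 2.61 at 8 fragments or more. The Igf2bp2KO ratio, 1.33 from 3 window peaks, was 0.667 against the left flank and 10.3 without the Obox2 bin. Leaving out a library gave 1.48 to 1.87 in Prmt6KO, 0 to 2.67 in Igf2bp2KO and 2.19 to 2.29 in WT. At 8 fragments or more, the window lay below the flanks in Prmt6KO replicate 1 (0.889), on 2 peaks in the window.

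The height ratio of window to flanks fell below 1 with q of 0.05 or below (0.988 in Prmt6KO, 0.991 in WT) and at 6 times the background (0.998 in Prmt6KO, 0.941 in Igf2bp2KO, 0.991 in WT). It was 1.02 and 1.05 against the left and right flank in Prmt6KO and 1.03 against the right flank in WT, and from medians 1.12 in Prmt6KO, 1 in Igf2bp2KO and 1 in WT. Leaving out a library gave 1.03 to 1.04 in Prmt6KO, 1.02 in Igf2bp2KO and 1.01 to 1.02 in WT. The replicated share of Prmt6KO peaks in the window minus that in the flanks was -4.41 points with q of 0.05 or below (1 of 19 window peaks), 0.488 at 6 times the background, 9.10 against the left flank, 15.1 against the right flank and 4.85 with overlap of at least 50% of both peaks. The count of receptors called in Prmt6KO, 52, was 1 with q of 0.05 or below and 1 at 6 times the background, where the 13 gained became 1, Vmn1r155. Leaving out a library gave 64 to 68 called and 19 to 29 gained. Of the 13, 7 were still gained with the gene span alone (18 in all) and 7 with 2.5 kb either side (16 in all). No paired analysis was possible because no result comes from a test that could take a replicate block, and the labels do not say that the numbers tie libraries together. Summits of 2 to 12 fragments and lists that begin at different heights limit all values of single peaks and genes.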

Other observations

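A segment of the left flank was denser than the proximal Vmn1r array in both Prmt6KO and both WT libraries. The bin of 0.5 Mb that starts 15 Mb into chromosome 7, whose only protein-coding gene in the table is Obox2, of a family of homeobox genes known from oocytes and early embryos, held 362 and 257 peaks in Prmt6KO, 3 and 3 in Igf2bp2KO, and 170 and 125 in WT. That is 724 and 514 peaks per Mb in Prmt6KO and 340 and 250 in WT, or 2.56 ± 0.534 and 4.91 ± 0.276 times the flanks (SD, n = 2 each). Prmt6KO exceeded WT 2.098-fold there, a smaller gap than the 2.75-fold of the proximal Vmn1r array. Its peaks were 1.13 ± 0.0227 times as tall as those of the flanks in Prmt6KO and 1.06 ± 0.0118 times in WT. This bin was picked out after its values were seen. All 3 flank peaks of Igf2bp2KO replicate 1 lay in it, as did 3 of the 4 of replicate 2.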
